A study of Arabidopsis thaliana with 4 samples.

Results

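The Aux/IAA genes described here encode short-lived repressors of auxin responses. They are IAA1 (AT4G14560), IAA2 (AT3G23030), IAA3 (AT1G04240), IAA4 (AT5G43700), IAA5 (AT1G15580), IAA7 (AT3G23050), IAA14 (AT4G14550), IAA17 (AT1G04250), IAA19 (AT3G15540) and IAA29 (AT4G32280). They were chosen by gene ID, with earlier results of these data known, as 10 of the 33610 genes in the count table. A further 19 Aux/IAA genes served as a comparison. RNA was sequenced from whole seedlings of Arabidopsis thaliana, ecotype Col0, at 2 weeks of age. The groups were wild type without treatment, wild type after 12 hours of abscisic acid (ABA), the lincRNA11195 mutant without treatment, and the same mutant after 12 hours of ABA, with 3 biological replicates each. The labels name 1 mutant of this long intergenic noncoding RNA, in the same ecotype. The sources used here do not give the kind of allele, the dose of ABA or any mock treatment of the untreated plants. Column names of untreated wild type hold a 12 that those of the untreated mutant lack. These names do not show whether both untreated groups were harvested at the same time.

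In the nucleus an Aux/IAA protein binds an auxin response factor (ARF), a DNA-binding regulator of auxin genes. The Aux/IAA protein recruits the corepressor TOPLESS, which keeps the target gene silent. Auxin joins the Aux/IAA protein to a receptor F-box protein of the TIR1/AFB family, the Aux/IAA protein is ubiquitinated and degraded, and the ARF is released. Many Aux/IAA genes are themselves induced by auxin, which closes a negative feedback loop. Mutations that stabilise single members gave several of them their other names, such as AXR5 for IAA1, SHY2 for IAA3, AXR2 for IAA7, SOLITARY ROOT for IAA14, AXR3 for IAA17 and MASSUGU2 for IAA19. ABA is the hormone of drought and of growth arrest, and it interacts with auxin in root growth and lateral root formation.

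Libraries held 14691544 to 22477294 counts, so that 3 counts made 0.129 to 0.185 CPM. Values below are CPM, counts scaled to library size with the TMM factors of edgeR, with SD over 3 libraries. The tissue labels were checked with marker genes. All 6 leaf markers and all 13 root markers had counts in every group, whereas 2 of 7 seed and flower markers (CRC and SESA3) had none and that list summed to at most 2.01 CPM. The leaf markers summed to 32872 to 37295 CPM in untreated wild type, 8861 to 10058 in wild type with ABA, 8103 to 15947 in the untreated mutant and 5162 to 8857 in the mutant with ABA. The root markers summed to 122.7 to 151.8, 69.4 to 74.2, 81.5 to 109.1 and 59.8 to 67.2 CPM in the same order. These marker levels therefore moved with genotype and treatment, and their part in the Aux/IAA differences was not tested. In whole seedlings, fewer cells of a type and less RNA per cell cannot be told apart. Untreated mutant replicate 1 was the shallowest library and had the lowest leaf marker sum of its group. It is left out in turn below where it matters for the members. For genes outside the members no result without this library is given, so their calls in the untreated mutant carry no such check.

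On chromosomes 1, 3 and 4, 6 of the members form 3 neighbour pairs on opposite strands, with the gene starts facing each other and 0 protein-coding genes between them in the RefSeq annotation of TAIR10.1. IAA3 and IAA17 lie 6388 bases apart on chromosome 1, IAA2 and IAA7 lie 12510 bases apart on chromosome 3, and IAA1 and IAA14 lie 10732 bases apart on chromosome 4. Each pair holds a member of the closely related group IAA1 to IAA4 and a member of the related group IAA7, IAA14 and IAA17.

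Upstream sequences are shown for 4 members, because they hold letters known as an auxin response element (TGTCTC or TGTCGG) or a G-box (CACGTG), the hexamer bound by PIF and bZIP factors, and because these genes went in different directions in the comparisons below. Each is 300 bases before the annotated gene start, written 5′ to 3′ on the gene's strand from the RefSeq TAIR10.1 genome, with matches on either strand in capitals. The count table, whose labels name TAIR10, carries no positions.
IAA1, plus strand, chr4:8360696-8360995: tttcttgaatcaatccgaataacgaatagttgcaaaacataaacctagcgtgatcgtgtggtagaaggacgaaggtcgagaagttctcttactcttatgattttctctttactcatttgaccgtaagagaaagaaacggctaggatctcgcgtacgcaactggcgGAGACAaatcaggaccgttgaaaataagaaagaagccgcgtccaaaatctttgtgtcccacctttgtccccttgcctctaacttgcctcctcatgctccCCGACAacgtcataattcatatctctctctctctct
IAA3, minus strand, chr1:1129690-1129989: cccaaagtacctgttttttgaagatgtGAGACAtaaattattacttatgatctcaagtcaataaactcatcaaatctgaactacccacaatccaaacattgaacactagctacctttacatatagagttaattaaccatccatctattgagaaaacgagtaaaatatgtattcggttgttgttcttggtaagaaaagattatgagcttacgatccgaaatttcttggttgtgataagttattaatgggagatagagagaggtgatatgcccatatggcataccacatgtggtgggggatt
IAA7, plus strand, chr3:8194306-8194605: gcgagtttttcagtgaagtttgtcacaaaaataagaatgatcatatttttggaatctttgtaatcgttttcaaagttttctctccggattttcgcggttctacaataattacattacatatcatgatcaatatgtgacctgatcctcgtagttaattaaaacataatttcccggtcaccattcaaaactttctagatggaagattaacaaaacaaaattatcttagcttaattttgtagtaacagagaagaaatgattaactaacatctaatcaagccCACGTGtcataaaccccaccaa
IAA19, plus strand, chr3:5263701-5264000: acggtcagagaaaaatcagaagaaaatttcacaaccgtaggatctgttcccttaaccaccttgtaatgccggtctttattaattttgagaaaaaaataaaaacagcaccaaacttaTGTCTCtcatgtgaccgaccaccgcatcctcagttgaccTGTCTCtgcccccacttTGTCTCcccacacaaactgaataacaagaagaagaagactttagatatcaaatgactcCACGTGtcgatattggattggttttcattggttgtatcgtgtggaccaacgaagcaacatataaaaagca

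The capitals in IAA1 are TGTCTC read on the other strand (GAGACA), starting 135 bases before the gene start, and TGTCGG read on the other strand (CCGACA), starting 36 bases before it. IAA3 had TGTCTC on the other strand, starting 273 bases upstream. IAA19 carried TGTCTC 3 times, starting 184, 145 and 128 bases upstream, and CACGTG once, starting 70 bases upstream. IAA7 held CACGTG, starting 22 bases upstream. Among the 10 members TGTCTC was found in 4 (IAA1, IAA3, IAA5 and IAA19), against 13% of 27443 protein-coding genes in windows of the same length. TGTCGG was found in 2 (IAA1 and IAA5, against 4.91%), CACGTG in 2 (against 7.09%), and ACGTG, the core of the ABA response element, which lies inside every CACGTG, in 3 (IAA5, IAA7 and IAA19, against 25.6%). These are matches of letters and not binding sites.

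Levels of different members were compared per kilobase of annotated exon. In untreated wild type seedlings IAA4 was the most abundant member at 46.0 ± 3.51 CPM per kilobase (SD, n = 3). IAA7 followed at 37.0 ± 4.26, its range of 1 SD below that of IAA4. IAA17 at 35.3 ± 5.94 and IAA2 at 31.6 ± 1.10 came next, and the ranges of 1 SD of IAA7 and IAA17, and of IAA17 and IAA2, overlapped. IAA3 stood at 20.4 ± 1.23, clear of IAA2 above it. IAA1 at 7.44 ± 1.63 and IAA14 at 6.28 ± 0.873 did not differ beyond their spread, and IAA19 stood below them at 3.81 ± 0.411. IAA5 at 0.590 ± 0.202 and IAA29 at 0.248 ± 0.211 were near the count floor. In the untreated mutant the order changed to IAA4 at 103.3 ± 39.0, IAA2 at 63.2 ± 14.6, IAA3 at 36.1 ± 15.6, IAA7 at 23.3 ± 0.996, IAA17 at 20.4 ± 2.91 and IAA1 at 16.4 ± 4.08 CPM per kilobase, with the spread of IAA3 reaching below the level of IAA7.

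**Figure D1:**
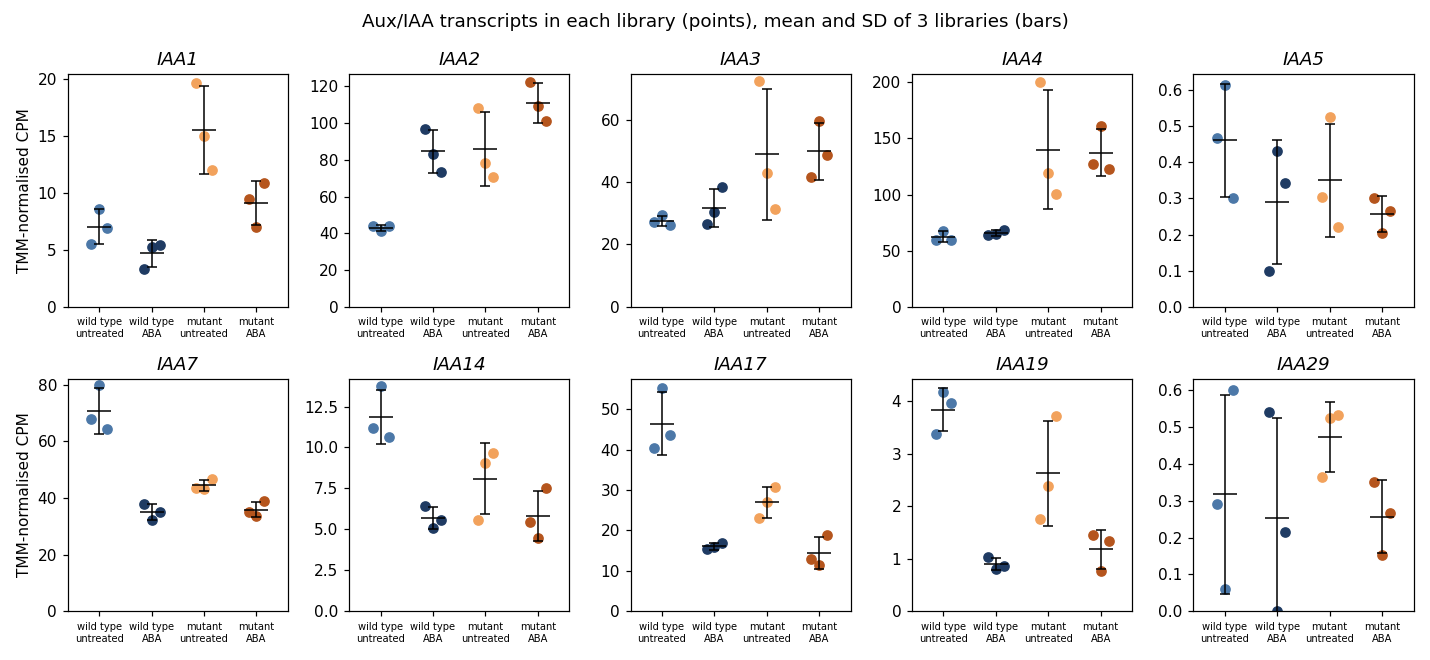
TMM-normalised CPM (vertical axis, linear, different range in each panel) of the 10 Aux/IAA genes in the 4 groups, with 1 point per library and bars for the mean and SD of 3 libraries, cut at 0. IAA1 to IAA4 sit higher in both mutant groups than in the wild type group of the same treatment, and IAA7, IAA14, IAA17 and IAA19 have their highest mean in untreated wild type.

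Wild type seedlings after ABA held less IAA7, IAA14, IAA17 and IAA19 transcript and more IAA2 transcript than untreated seedlings. Of the 9 members that passed the filter on low counts, 1 rose and 4 fell, where 53.4% of all 21322 genes tested changed in this comparison (25.2% higher and 28.2% lower), so the share of members changed was near the background. The median log2 fold change of the 9 was -0.58, against -0.03 over all genes.

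The largest change was in IAA19, a repressor known for hypocotyl bending towards light and against gravity. It stood at 3.38, 4.19 and 3.97 CPM in untreated wild type libraries and at 1.04, 0.813 and 0.860 CPM with ABA. All ABA libraries lay below all untreated ones, and the log2 fold change was -2.08 ± 0.31 (SE; edgeR quasi-likelihood test, Benjamini-Hochberg adjusted p = 0.000140). IAA17, whose stabilised form makes plants auxin resistant, went from 40.5, 55.3 and 43.6 CPM to 15.4, 15.8 and 17.0 CPM. These groups did not overlap either, at -1.53 ± 0.19 (edgeR adjusted p = 3.50e-05).

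IAA7, a close relative of IAA17, stood at 67.9, 79.8 and 64.2 CPM untreated and at 37.9, 32.2 and 35.1 CPM with ABA. The lowest untreated library was far above the highest treated one, and the log2 fold change was -1.01 ± 0.12 (edgeR adjusted p = 2.49e-05). IAA14, known for the block of lateral root formation in its stabilised form, went from 11.2, 13.7 and 10.6 to 6.41, 5.07 and 5.59 CPM, again without overlap (-1.06 ± 0.23, edgeR adjusted p = 0.00210). Once exon length and GC content had been adjusted for, these changes were -1.41 for IAA7 and -1.64 for IAA14. All 4 calls held in each of the 18 alternatives run.

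IAA2 went the other way. It stood at 43.7, 41.2 and 43.9 CPM in untreated wild type and at 97.0, 83.3 and 73.3 CPM with ABA, without overlap (0.98 ± 0.17, edgeR adjusted p = 0.000377). Its neighbour IAA7 fell in the same libraries. IAA1, with 5.54, 8.62 and 6.97 CPM untreated and 3.35, 5.26 and 5.46 CPM with ABA, had no overlap between groups but did not pass (-0.58 ± 0.26, edgeR adjusted p = 0.0738, and -0.60 with edgeR adjusted p = 0.0379 after the length and GC correction). IAA3 stood at 27.3, 29.4 and 26.1 CPM untreated and at 26.5, 30.4 and 38.3 CPM with ABA, with overlap. For IAA3 the log2 fold change was 0.20 ± 0.25 (edgeR adjusted p = 0.525), and for IAA4 0.08 ± 0.21 (edgeR adjusted p = 0.782), with signs that turned under the length and GC correction. In all, 6 of the 9 tested members had groups that did not overlap, against 62.5% of all genes tested.

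In the mutant, ABA lowered IAA1, IAA17 and IAA19, and 0 members rose. By edgeR 3 of 9 members changed, against 42.5% of all genes tested (21.5% higher and 21.1% lower), and in 5 of 9 the groups did not overlap, against 50.2%. IAA29 was 1 of these 5, with 3 to 12 counts per library. Its lowest untreated library stood at 0.365 CPM and its highest treated one at 0.351 CPM. At an unadjusted p under 0.05, 1 member was higher (IAA2) and 4 were lower, and DESeq2 called 0 higher and 4 lower. Over all 21322 genes tested, 5359 were higher and 5379 lower at that unadjusted p, and DESeq2 called 4674 higher and 4701 lower. IAA19 went from 1.76, 2.38 and 3.73 CPM untreated to 1.45, 0.763 and 1.33 CPM with ABA (-1.16 ± 0.31, edgeR adjusted p = 0.00905). The gap between the lowest untreated and the highest treated library was narrow, and without untreated mutant replicate 3, the highest of its group, the change was -0.82 (edgeR adjusted p = 0.0536). IAA17 went from 23.0, 27.1 and 30.7 CPM to 12.8, 11.3 and 18.9 CPM (-0.91 ± 0.19, edgeR adjusted p = 0.00223).

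IAA1 in the mutant went from 19.6, 15.02 and 12.0 CPM to 9.52, 7.02 and 10.9 CPM, without overlap (-0.77 ± 0.24, edgeR adjusted p = 0.0234). Its call was lost without untreated mutant replicate 1 (-0.57), without untreated mutant replicate 2 (-0.79), without ABA mutant replicate 1 (-0.80) and without ABA mutant replicate 2 (-0.61). IAA7 went from 43.6, 43.3 and 46.7 CPM to 35.0, 33.8 and 38.9 CPM and IAA14 from 5.60, 9.06 and 9.64 CPM to 5.46, 4.48 and 7.50 CPM. Neither passed (-0.31 ± 0.12, edgeR adjusted p = 0.0532, and -0.49 ± 0.23, edgeR adjusted p = 0.112). Both were called after the length and GC correction, at -0.57 and -0.87, which brought the count of members lowered to 5. That count was also 5 without ABA mutant replicate 3, and 2 without ABA mutant replicate 1 or 2 or untreated mutant replicate 2 or 3. IAA2 was at 108.4, 78.4 and 70.8 CPM untreated and 122.55, 109.3 and 100.9 CPM with ABA (0.37 ± 0.17, edgeR adjusted p = 0.0891), and without untreated mutant replicate 1, its highest untreated library, at 0.57 (edgeR adjusted p = 0.00848).

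The response to ABA was then compared between genotypes. For the difference of the log2 fold changes, mutant minus wild type, edgeR called 0 of 9 members, against 1.8% of all genes tested (1.66% higher and 0.141% lower), while DESeq2 called 1 (IAA7) and 3 had an unadjusted p under 0.05 (IAA2, IAA7 and IAA17). Over all 21322 genes tested, DESeq2 called 682 higher and 87 lower, and 2609 had an unadjusted p under 0.05 by edgeR. IAA7 fell less in the mutant by 0.70 ± 0.17 on the log2 scale (edgeR adjusted p = 0.0586, and 0.0107 by DESeq2). With the length and GC correction the difference was 0.84 (edgeR adjusted p = 0.0493). The differences were 0.62 ± 0.27 for IAA17 (edgeR adjusted p = 0.354), 0.92 ± 0.44 for IAA19 (edgeR adjusted p = 0.430) and 0.57 ± 0.33 for IAA14 (edgeR adjusted p = 0.533). For IAA2 the difference was -0.61 ± 0.23 (edgeR adjusted p = 0.288). Besides IAA7 under those 2 settings, no member's response was shown to differ between genotypes.

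Untreated mutant seedlings held more IAA1, IAA2, IAA3 and IAA4 transcript and less IAA7 and IAA17 transcript than untreated wild type. Of the 9 members tested, 4 were higher and 2 lower, where 23.6% of all genes tested differed, 8.77% higher and 14.8% lower. In 7 of the 9 the libraries of the groups did not overlap, against 45.2% of all genes tested. Because the members were chosen with earlier results of these data known, these shares describe the chosen genes and do not test the family. Of the 15 other Aux/IAA genes tested, 2 were higher and 1 lower. This comparison and that of ABA in wild type share the untreated wild type libraries.

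IAA4, an early auxin-induced gene, stood at 59.6, 67.8 and 59.5 CPM in wild type and at 200.2, 119.5 and 100.7 CPM in the mutant. All mutant libraries were above all wild type ones, with replicate 1 far above the other mutant libraries (1.17 ± 0.22, edgeR adjusted p = 0.00246, and 0.82 without that library). IAA1, known for its rapid induction by auxin, went from 5.54, 8.62 and 6.97 CPM in wild type to 19.6, 15.02 and 12.0 CPM in the mutant (1.14 ± 0.25, edgeR adjusted p = 0.00644, and 0.94 without mutant replicate 1). IAA2 stood at 108.4, 78.4 and 70.8 CPM against 43.7, 41.2 and 43.9 CPM in wild type, about the level that wild type reached with ABA (0.998 ± 0.17, edgeR adjusted p = 0.00129, and 0.80 without mutant replicate 1). The calls of these 3 genes held in all 18 alternatives.

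IAA3, a repressor with a known role in root meristem size and light responses of the hypocotyl, stood at 27.3, 29.4 and 26.1 CPM in wild type and at 72.3, 42.9 and 31.5 CPM in the mutant. The groups did not overlap, but the mutant libraries were spread widely (0.82 ± 0.25, edgeR adjusted p = 0.0350). Without mutant replicate 1 the difference was 0.43 (edgeR adjusted p = 0.183), and the call was lost in 7 of 18 alternatives, among them each wild type library left out, the replicate block (0.81, edgeR adjusted p = 0.0558) and the length and GC correction (0.62, edgeR adjusted p = 0.0611). The annotation places AT1G04230 on the opposite strand across 640 bases of IAA3. It stood at 11.0 ± 0.989 CPM in untreated wild type and at 10.7 ± 0.454 CPM in the untreated mutant, and the sources used here do not say whether reads were counted by strand.

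IAA7 stood at 67.9, 79.8 and 64.2 CPM in untreated wild type and at 43.6, 43.3 and 46.7 CPM in the untreated mutant. The groups were well apart (-0.67 ± 0.12, edgeR adjusted p = 0.00199, called in all 18 alternatives). IAA17 went from 40.5, 55.3 and 43.6 CPM to 23.0, 27.1 and 30.7 CPM, also without overlap (-0.79 ± 0.19, edgeR adjusted p = 0.0101, and -0.60 with edgeR adjusted p = 0.0557 without wild type replicate 2). IAA14 had 11.2, 13.7 and 10.6 CPM in wild type and 5.60, 9.06 and 9.64 CPM in the mutant and did not pass (-0.54 ± 0.23, edgeR adjusted p = 0.101, and -1.02 with edgeR adjusted p = 0.0316 after the length and GC correction). IAA19 had 3.38, 4.19 and 3.97 CPM in wild type and 1.76, 2.38 and 3.73 CPM in the mutant, with overlap (-0.53 ± 0.28, edgeR adjusted p = 0.184).

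In the neighbour pairs described above, the untreated mutant thus held more of IAA3 and less of IAA17, and more of IAA2 and less of IAA7, while of IAA1 and IAA14 only the rise of IAA1 passed. Summed over IAA1 to IAA4, grouped by relation after the counts had been seen, levels were 136.2, 147.1 and 136.6 CPM in untreated wild type and 400.6, 255.8 and 214.9 CPM in the untreated mutant, 2.08 times as high in the mean. Summed over IAA7, IAA14 and IAA17 they were 119.6, 148.8 and 118.4 CPM in wild type and 72.2, 79.5 and 87.0 CPM in the mutant, or 0.617 times the wild type mean. Neither sum was tested. IAA16, a close relative of IAA7, IAA14 and IAA17 but not among the 10 members, is not in the second sum. IAA16 stood at 124.1 ± 4.21 CPM in untreated wild type and at 134.9 ± 26.8 CPM in the untreated mutant (0.12 ± 0.18, edgeR adjusted p = 0.643). The lower sum thus describes these 3 genes and not all their close relatives. All 10 members together held 273.5 ± 23.6 CPM in untreated wild type and 373.4 ± 89.6 CPM in the untreated mutant, and all 29 Aux/IAA genes 1202 ± 78.6 and 1375 ± 170 CPM.

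**Figure D2:**
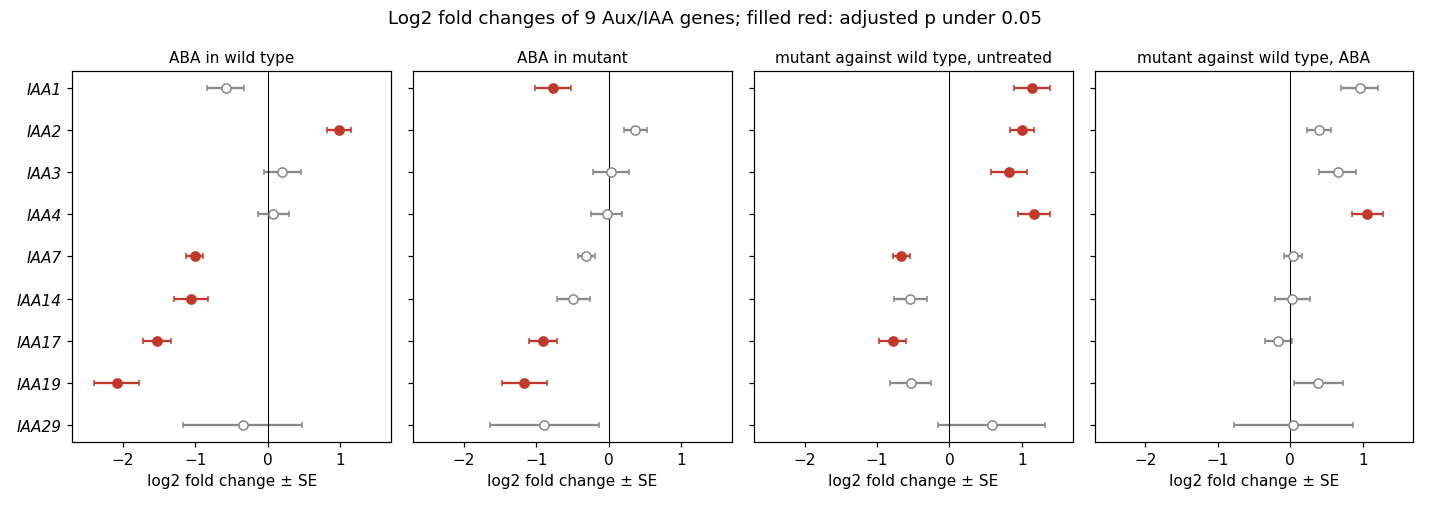
Log2 fold change with SE (horizontal axis) of the 9 Aux/IAA genes that passed the filter, in 4 comparisons of 3 against 3 libraries, with filled red points for edgeR adjusted p under 0.05. Among untreated seedlings IAA1 to IAA4 lie right of 0 in the mutant and IAA7 and IAA17 left of it, and in wild type with ABA IAA7, IAA14, IAA17 and IAA19 lie left of 0 and IAA2 right of it.

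With ABA in both genotypes, IAA4 was the 1 member called, against 1.79% of all genes tested, 1.61% higher and 0.178% lower. It stood at 63.9, 64.8 and 68.3 CPM in wild type and at 127.4, 161.1 and 123.0 CPM in the mutant, well apart (1.06 ± 0.22, edgeR adjusted p = 0.0237). The call was lost without any 1 of the wild type ABA libraries or without mutant ABA replicate 1 or 2, with differences of 0.93 to 1.11 and edgeR adjusted p of 0.0609 to 0.111 in those 5 fits. The libraries of IAA1, IAA2 and IAA3 did not overlap either, all higher in the mutant. IAA1, with 3.35, 5.26 and 5.46 CPM in wild type and 9.52, 7.02 and 10.9 CPM in the mutant, had a log2 fold change of 0.96 ± 0.25 (edgeR adjusted p = 0.0922, and 0.0185 by DESeq2). IAA3 stood at 26.5, 30.4 and 38.3 CPM in wild type and at 41.5, 59.6 and 48.6 CPM in the mutant. For IAA3 the log2 fold change was 0.65 ± 0.25 (edgeR adjusted p = 0.292) and for IAA2 0.39 ± 0.17 (edgeR adjusted p = 0.336). Groups without overlap numbered 4 of 9, against 19.4% of all genes tested.

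IAA7, IAA14 and IAA17 stood at like levels in both genotypes once ABA was present, with log2 fold changes of 0.04 ± 0.12, 0.03 ± 0.24 and -0.16 ± 0.19 and overlapping libraries. Their summed level, again without IAA16, was 56.8 ± 3.38 CPM in wild type and 56.1 ± 8.23 CPM in the mutant. A p that misses the threshold does not show equality, and the SE values give the precision of these differences.

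IAA5 and IAA29 were scarcely present. IAA5 had 5 to 10 counts per library in untreated wild type, 2 to 9 in wild type with ABA, 5 to 11 in the untreated mutant and 4 to 6 in the mutant with ABA, and it did not pass the filter on low counts, so it was not tested. Its annotation overlaps that of CYCA2;3, a mitotic cyclin gene on the opposite strand, by 48 bases. IAA29, known in seedlings as a target of PIF factors in shade and warmth, had 1 to 10, 0 to 11, 6 to 12 and 3 to 7 counts in the same order of groups. It passed the filter and was called in 0 comparisons by edgeR, with 0 unadjusted p under 0.05, and in 0 by DESeq2, which gave no adjusted p for mutant against wild type with ABA, and its SE of 0.74 or more leaves differences of that size not detectable at this depth.

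Members were also compared by the shape of their profile, as the root mean square difference over the 12 libraries of log2(CPM + 1) after centring each gene on its own mean. The libraries fall into groups by treatment and genotype, and all genes share the same libraries, so the values are a description. IAA7 and IAA14 were each other's nearest member, at 0.176, and so were IAA3 and IAA4, at 0.230. IAA1 was farther from its nearest member IAA4, at 0.424, and the nearest member to IAA17 was IAA19, at 0.250. Among all genes with a mean of at least 5 CPM, the nearest to IAA17 were FER3, a ferritin gene, at 0.113, and ADSS, a gene of adenine nucleotide synthesis, at 0.116. For IAA7 the nearest named gene was HOL1, at 0.0959, and for IAA3 it was CYCD4;1, a cyclin gene, at 0.145.

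Of the 19 other Aux/IAA genes, 15 passed the filter. With ABA 6 rose and 3 fell in wild type, where 53.4% of all genes tested changed, and 6 rose and 3 fell in the mutant, where 42.5% changed. These counts were not tested against those of the members. IAA27 fell by 1.22 ± 0.13 in wild type and by 1.03 ± 0.13 in the mutant (edgeR adjusted p = 8.99e-06 and 4.79e-05). IAA28, a repressor of lateral root initiation, rose by 0.57 ± 0.13 and 0.69 ± 0.13 (edgeR adjusted p = 0.00246 and 0.00104), and IAA18 by 0.80 ± 0.18 and 0.84 ± 0.18 (edgeR adjusted p = 0.00248 and 0.00252). IAA16, a close relative of IAA7, IAA14 and IAA17 and chosen here for that, went from 124.1 ± 4.21 CPM (SD, n = 3) to 174.9 ± 34.1 CPM in wild type with ABA (0.50 ± 0.18, edgeR adjusted p = 0.0309), opposite to its 3 relatives. In the untreated mutant, where 23.6% of all genes tested differed, IAA13 and IAA26 were higher (0.49 ± 0.14 and 0.59 ± 0.18, edgeR adjusted p = 0.0254 and 0.0323) and IAA27 was lower (-0.41 ± 0.13, edgeR adjusted p = 0.0339), and the median of the 15 was 0.13, against 0.01 over all genes.

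Other genes of the auxin pathway were described by lists from general knowledge. Of 13 tested auxin transport genes, 13 fell with ABA in wild type and 10 in the mutant, where 28.2% and 21.1% of all genes tested were lower, and 0 rose in either by edgeR, by DESeq2 or at an unadjusted p under 0.05. The influx carrier gene LAX3 fell by 1.73 ± 0.17 (edgeR adjusted p = 4.21e-06) and the efflux carrier gene PIN4 by 1.47 ± 0.15 (edgeR adjusted p = 5.84e-06). In the untreated mutant 5 of the 13 were lower than in wild type, against 14.8% of all genes tested, among them PIN4 at -0.94 ± 0.14 (edgeR adjusted p = 0.000732) and PIN3 at -0.64 ± 0.15 (edgeR adjusted p = 0.00856). The summed root markers were also lower in these groups, as given above, but single markers went both ways. Of the 13, 2 rose (CASP5 and WOX5) and 8 fell with ABA in wild type, the same 2 rose and 6 fell in the mutant, and 0 were higher and 3 lower in the untreated mutant, where DESeq2 called 1 higher and 1 was higher at an unadjusted p under 0.05. Their part in the changes of the transport genes was not tested.

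Of 9 auxin synthesis genes, 1 rose and 5 fell with ABA in wild type, against 25.2% higher and 28.2% lower over all genes tested, and 2 rose and 5 fell in the mutant, against 21.5% and 21.1%. TAR2, for an aminotransferase of the indole-3-pyruvate route, fell by 1.12 ± 0.14 in wild type (edgeR adjusted p = 3.89e-05) and YUC5, for a flavin monooxygenase of the next step, by 2.72 ± 0.39 (edgeR adjusted p = 9.67e-05). YUC5 had 12 to 22 counts per library in untreated wild type and 3 or 4 with ABA, near the count floor. In the untreated mutant 3 of the 9 were lower, against 14.8% of all genes tested, namely TAA1 at -1.15 ± 0.30, YUC8 at -0.94 ± 0.28 and YUC4 at -1.18 ± 0.35 (edgeR adjusted p = 0.0164, 0.0294 and 0.0295). YUC4 had 13 to 16 counts per library in the untreated mutant and 23 to 34 in untreated wild type. Of 7 GH3 genes, whose enzymes conjugate auxin to amino acids and of which several are auxin-induced, 2 rose and 3 fell with ABA in wild type, where 53.4% of all genes tested changed. Those that rose were GH3.5 at 1.37 ± 0.35 and GH3.6 at 0.75 ± 0.18 (edgeR adjusted p = 0.00587 and 0.00385). Among those that fell were GH3.1 at -2.49 ± 0.41 and GH3.9 at -2.10 ± 0.22 (edgeR adjusted p = 0.000283 and 1.03e-05). GH3.1 had only 4 to 7 counts per library in wild type with ABA. In the untreated mutant 1 of the 7 was lower and 0 were higher, against 14.8% and 8.77% of all genes tested. The lower gene was GH3.1 at -1.30 ± 0.37 (edgeR adjusted p = 0.0231). It had 4 to 17 counts per library in the untreated mutant and 17 to 31 in untreated wild type. IAA1 to IAA4, which auxin also induces, were higher, and the part of auxin in these differences was not tested.

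The counts of receptor, ARF and TOPLESS genes called with ABA in wild type were below the 53.4% of all genes tested that changed. On the side of perception, 2 of the 6 TIR1/AFB receptor genes fell, AFB1 at -1.20 ± 0.22 and TIR1 at -0.52 ± 0.20 (edgeR adjusted p = 0.000598 and 0.0419). In the mutant, where 42.5% of all genes tested changed with ABA, 1 fell, AFB1 at -1.08 ± 0.22 (edgeR adjusted p = 0.00193). TIR1 was lower in the untreated mutant than in wild type at -0.85 ± 0.20 (edgeR adjusted p = 0.0100). Of the 15 ARF genes 4 rose and 3 fell with ABA in wild type, with ARF3 at -1.29 ± 0.21 (edgeR adjusted p = 0.000293), 1 rose and 3 fell in the mutant, and 1 was higher and 2 lower in the untreated mutant, against 23.6% of all genes tested either way, with ARF3 at -1.14 ± 0.21 (edgeR adjusted p = 0.00255). Of the 5 TOPLESS genes TPR4 rose with ABA in wild type (0.68 ± 0.20, edgeR adjusted p = 0.0107). None was called in the mutant with ABA or between untreated genotypes by edgeR or DESeq2, where 1 and 0 had an unadjusted p under 0.05.

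Of the 6 genes of PIF factors and ATHB2, 1 rose and 2 fell with ABA in wild type, where 53.4% of all genes tested changed. With ABA in the mutant 2 rose and 0 fell, where 42.5% changed. Between untreated genotypes 1 was higher and 0 lower, where 23.6% differed, and between genotypes with ABA 2 were higher and 0 lower, where 1.79% differed. PIF3 rose with ABA by 2.38 ± 0.13 in wild type and 2.34 ± 0.13 in the mutant (edgeR adjusted p = 7.77e-08 and 9.34e-08). PIF1 fell by 1.28 ± 0.18 in wild type (edgeR adjusted p = 7.05e-05) and stood at -0.38 ± 0.17 in the mutant (edgeR adjusted p = 0.0912). PIF4 rose in the mutant (1.07 ± 0.37, edgeR adjusted p = 0.0313) but was not called in wild type (0.81 ± 0.34, edgeR adjusted p = 0.0624). PIF5 fell with ABA in wild type (-0.48 ± 0.19, edgeR adjusted p = 0.0429) but was not called in the mutant (-0.20 ± 0.18, edgeR adjusted p = 0.390). For the difference of the response between genotypes, edgeR called 0 of the 6, against 1.8% of all genes tested. DESeq2 called 1, against 682 higher and 87 lower over all genes. DESeq2 called 1 gene of this list lower with ABA in wild type, where edgeR called 2. PIF5 was higher in the mutant than in wild type with ABA (0.80 ± 0.18, edgeR adjusted p = 0.0463). ATHB2, a shade-induced transcription factor gene, was higher in the mutant than in wild type both untreated (0.74 ± 0.20, edgeR adjusted p = 0.0178) and with ABA (1.09 ± 0.20, edgeR adjusted p = 0.0124). IAA19 and IAA29, which share PIF factors as known regulators with ATHB2, were called in neither comparison of genotypes. Between untreated genotypes IAA19 stood at -0.53 ± 0.28, opposite in sign to ATHB2, and with ABA at 0.39 ± 0.34. IAA29 stood at 0.58 ± 0.74 and 0.04 ± 0.82 in the same order. A difference like that of ATHB2 could be missed in IAA29, and less so in IAA19 with ABA. The part of PIF factors was not tested. Of 2 tested LBD genes of lateral root formation, edgeR and DESeq2 called 0 in the comparisons of treatments and genotypes, and 1 had an unadjusted p under 0.05 between untreated genotypes.

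**Figure D3:**
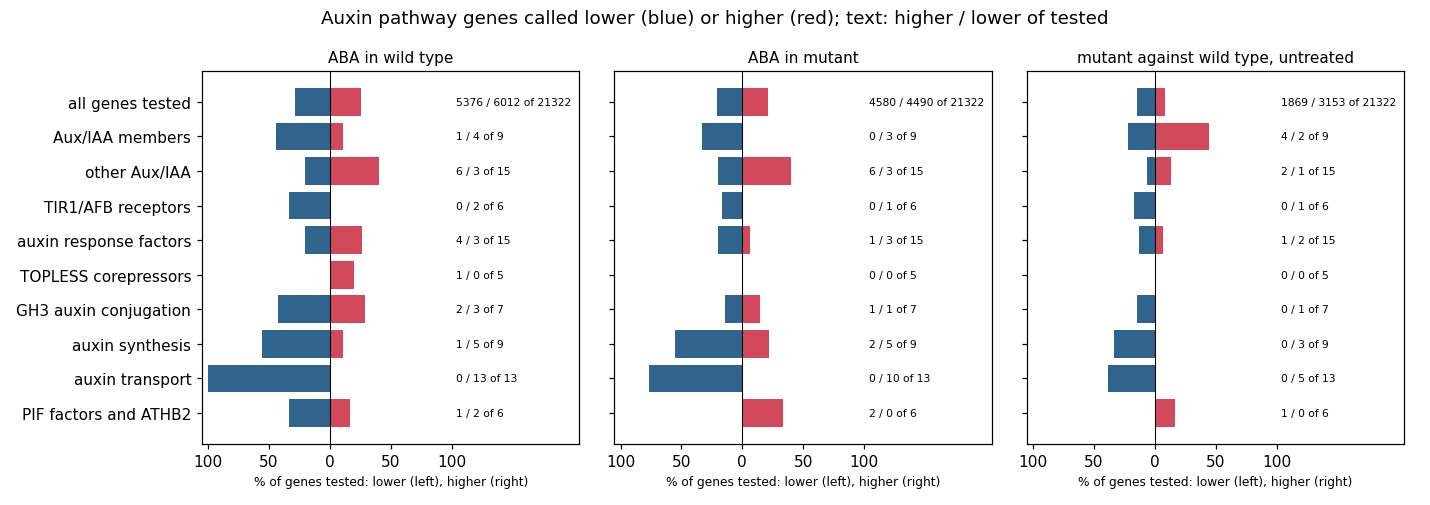
Share of tested genes called lower (blue, left of 0) or higher (red, right of 0) by edgeR at adjusted p under 0.05, in percent, for all genes and 9 lists of the auxin pathway in 3 comparisons, with the counts higher and lower of those tested beside each bar. All 13 auxin transport genes were lower in wild type with ABA, and the 10 chosen Aux/IAA genes had 4 higher and 2 lower of 9 tested in the untreated mutant.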

How the data were processed

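The authors deposited whole-number read counts per gene for 12 RNA-seq libraries in 1 table, not normalized. Per the submitters' processing notes, Trim Galore 0.3.3, edgeR and TAIR10 were used; the sources used here do not give the aligner, the counting tool or its strand setting. From these counts, edgeR 4.0.16 (R 4.3.3) was run with TMM scaling, filterByExpr by group and the quasi-likelihood test over all 12 libraries, with Benjamini-Hochberg adjustment over the 21322 genes tested and a call at adjusted p under 0.05. The SE is the log2 fold change divided by the square root of F. The fit was tested on simulated data. Alternatives were DESeq2 1.42.0, RLE scaling, no filter, each library left out, a replicate block, only the groups compared, and an adjustment for exon length and GC content (the length and GC correction). The Aux/IAA members were chosen by gene ID, and all 9 tested are named. Other pathway genes named are examples from the lists. Members and lists were chosen with earlier results of these data known. Replicates are labelled biological, and no label pairs them across groups. Exon lengths, neighbours and upstream sequences come from RefSeq TAIR10.1, matched by gene ID for 28932 of 33610 genes.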

Additional observations from a re-analysis of the deposited data

How the results depend on the processing

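Of 15 calls among the members, 10 held in all 18 alternatives and 5 were lost in some, each named in the report. With the length and GC correction, ABA in the mutant changed 5 members (3 in the main analysis) and the interaction 1 (0 in the main analysis). With DESeq2, the mutant differed from wild type with ABA in 2 members (1 in the main analysis) and the interaction called 1. Over all 21322 genes tested, DESeq2 called 587 higher and 160 lower in the former and 682 higher and 87 lower in the interaction. With 1 library left out, the counts ranged from 5 to 6 for ABA in wild type, 2 to 5 for ABA in the mutant, 4 to 7 for mutant against wild type untreated, 0 to 1 with ABA, and 0 to 0 for the interaction. The log2 fold changes that turned sign were all uncalled. With the length and GC correction they were IAA3 (-0.060) and IAA4 (-0.31) for ABA in wild type, IAA3 (-0.23) for ABA in the mutant, and IAA7 (-0.15), IAA14 (-0.26) and IAA29 (-0.15) for mutant against wild type with ABA. With 1 library left out, IAA29 ranged from -1.45 to 0.46 for ABA in wild type. For ABA in the mutant IAA3 ranged from -0.21 to 0.43 and IAA4 from -0.22 to 0.32. For mutant against wild type with ABA, IAA7 ranged from -0.027 to 0.094, IAA14 from -0.19 to 0.19 and IAA29 from -0.52 to 1.15. In the interaction IAA1 ranged from -0.41 to 0.015, IAA3 from -0.41 to 0.22, IAA4 from -0.30 to 0.24 and IAA29 from -1.35 to 0.57. The cause was not tested. Replicate numbers appear in the column names, but of 18 same-numbered pairs 6 had residual correlations above 0.1 (range -0.482 to 0.626), so the samples were treated as unpaired. Between wild type and mutant with ABA the values were 0.626, 0.071 and 0.382, all positive. For that comparison the tally does not show that the samples are unpaired. With the replicate block the counts were 5, 4, 5, 1 and 0 in the same order. Depth limits IAA5 and IAA29, which had at most 12 counts in a library.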
